A study of Mus musculus with 12 samples.

Results

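In the embryonic mouse cortex, 10 genes that carry a cell into mitosis and out of it were followed: the cyclins Ccna2, Ccnb1 and Ccnb2, the kinases Cdk1, Plk1, Aurka and Aurkb, the checkpoint kinase Bub1, the anaphase activator Cdc20 and the chromosome enzyme Top2a. They were taken by symbol, and 10 of 10 were present in all 12 deposited tables of 54735 gene symbols. All 10 reached a mean of 1 TPM over the 12 libraries, the minimum for testing, along with 11764 genes in all. TPM is a transcript abundance scaled for gene length and to a fixed library sum. RNA was sequenced from the dorsal telencephalon (pallium, the future cortex) of C57/Bl6 embryos at stage E13.5, as total RNA with 1 library per embryo and 4 embryos per group. The control group was Rnu11wt/flx::Trp53wt/wt::Emx1-Cre+. The cKO group was Rnu11flx/flx::Trp53wt/wt::Emx1-Cre+, and the dKO group was Rnu11flx/flx::Trp53flx/flx::Emx1-Cre+. All 3 groups carried Emx1-Cre and at least 1 floxed Rnu11 allele, so the control is a heterozygous Cre-positive embryo and not a wild type. Emx1-Cre acts in pallial progenitors and the cells they give rise to, so vessels, blood, microglia and interneurons that enter the pallium from outside keep their alleles. The labels do not say which embryos were littermates or whether tissue was pooled, so p-values measure only the spread between these samples.

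Rnu11 encodes the U11 small nuclear RNA, a part of the minor spliceosome, and Trp53 encodes the tumour suppressor p53. The question stated by the design is how loss of U11, with and without p53, changes the pallium. Entry into mitosis is driven by Cdk1 bound to cyclin B, with cyclin A earlier in G2, and exit begins when the anaphase-promoting complex with Cdc20 marks cyclin B and securin for destruction. Aurora and Polo kinases build the spindle, Bub1 holds the checkpoint at kinetochores, and Top2a untangles sister DNA. These genes are transcribed in G2 and M phase, and in the pallium at this stage they mark dividing radial glia and intermediate progenitors. In a tissue sample, fewer dividing cells and less RNA per dividing cell cannot be told apart.

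Genes of this class are known to share promoter elements, the cell cycle genes homology region (CHR, TTTGAA, with the variant TTTAAA) and the CCAAT box, through which the DREAM, MuvB and NF-Y complexes act. p53 is known to lower many such genes indirectly, through p21 and DREAM. The promoters are shown because the members are compared here with and without p53. RefSeq (build GRCm38.p6) gave a promoter for 8 of the 10 genes, the others being Ccna2 and Aurkb. For 5 of them the text prints the bases before the RefSeq start site, stopping where GENCODE M21 begins the gene, with capitals marking CHR, variant and CCAAT matches on either strand.
Ccnb2, chr9:70421555-70421664, minus strand: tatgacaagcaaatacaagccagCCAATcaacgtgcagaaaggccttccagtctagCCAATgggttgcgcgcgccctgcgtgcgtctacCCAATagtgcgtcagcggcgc
Cdk1, chr10:69352939-69353022, minus strand: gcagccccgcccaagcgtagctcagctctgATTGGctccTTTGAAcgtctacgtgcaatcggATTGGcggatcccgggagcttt
Plk1, chr7:122159325-122159434, plus strand: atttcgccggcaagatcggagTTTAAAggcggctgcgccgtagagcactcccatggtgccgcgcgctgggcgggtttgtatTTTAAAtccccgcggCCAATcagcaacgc
Cdc20, chr4:118437353-118437453, minus strand: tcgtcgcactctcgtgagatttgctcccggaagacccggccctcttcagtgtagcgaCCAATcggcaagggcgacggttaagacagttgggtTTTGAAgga
Top2a, chr11:99024190-99024299, minus strand: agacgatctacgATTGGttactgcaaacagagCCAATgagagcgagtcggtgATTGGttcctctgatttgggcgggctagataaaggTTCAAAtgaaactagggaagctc

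In the 110 bases before the start site, CCAAT was found on either strand in 8 of 8 members with a promoter, against 20.96% of 27025 genes in the same table. TTTGAA or TTTAAA was found there in 5 of 8 members, against 10.8% of genes, and the same 5 also held CCAAT, against 2.14% of genes. None of these matches overlapped another. CCAAT boxes stood 32 to 33 bases apart in Ccnb1, Ccnb2, Cdk1 and Aurka, and 3 of them followed each other at that spacing in Ccnb2. Ccnb1, counted among the 5, held TTTAAA 42 to 37 bases before its RefSeq start. GENCODE M21 places that stretch inside the gene, and the Ccnb1 bases are not printed for this reason. In Ccnb2, a TTTGAA lay 5 to 10 bases after the start, and in Bub1 neither hexamer occurred anywhere in the table's window. A match describes these letters only and is no evidence of binding.

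The deposited values form a closed sum, so RNAs outside the coding genes set part of each library's scale. Nuclear protein-coding genes held 14.6 to 16.3% of TPM in control, 16.1 to 20.0% in cKO and 14.4 to 15.5% in dKO, and cKO embryo 4 had the highest share of the 12. The median gene was 0.25 higher in cKO than in control on the log2(TPM + 1) scale, while it was -0.01 in dKO against control. The counts over the 10 genes, and each gene's interval in the plot by genotype, are therefore also given after median-shift centring, which subtracts each library's median log2 difference from the mean library, and after protein-coding rescaling, which gives each library an equal sum of nuclear protein-coding TPM. Rnu11 ran from 521 to 724 TPM in control, from 115 to 159 TPM in cKO and from 142 to 199 TPM in dKO. Trp53 ran from 2.63 to 6.37 TPM in control, from 3.92 to 4.83 TPM in cKO and from 0.92 to 1.49 TPM in dKO. Both genes were lower in each group labelled as lacking them, with no overlap with control (exact two-sided permutation test, p = 0.0286 each, the smallest that 70 assignments of 4 against 4 can give).

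In control pallium the 10 genes spanned from 3.77 to 159 TPM. Top2a stood highest at 159 ± 14.9 TPM (SD, n = 4), above 97.6% of the genes tested, and Cdk1 followed at 104 ± 7.41 TPM. Ccna2 (56.6 ± 4.38 TPM) and Ccnb1 (48.0 ± 4.14 TPM) came next and overlapped each other. Cdc20 (31.5 ± 4.87 TPM) overlapped Bub1 (26.6 ± 2.49 TPM), and Ccnb2 (20.0 ± 2.79 TPM) overlapped Aurka (15.8 ± 2.18 TPM). The lowest were Aurkb at 6.76 ± 1.32 TPM and Plk1 at 3.77 ± 1.40 TPM, which also overlapped. Other neighbours in this order did not overlap between embryos. Plk1 lay above only 44% of the genes tested and had the widest relative spread in control, with a coefficient of variation of 37.2%.

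**Figure D1:**
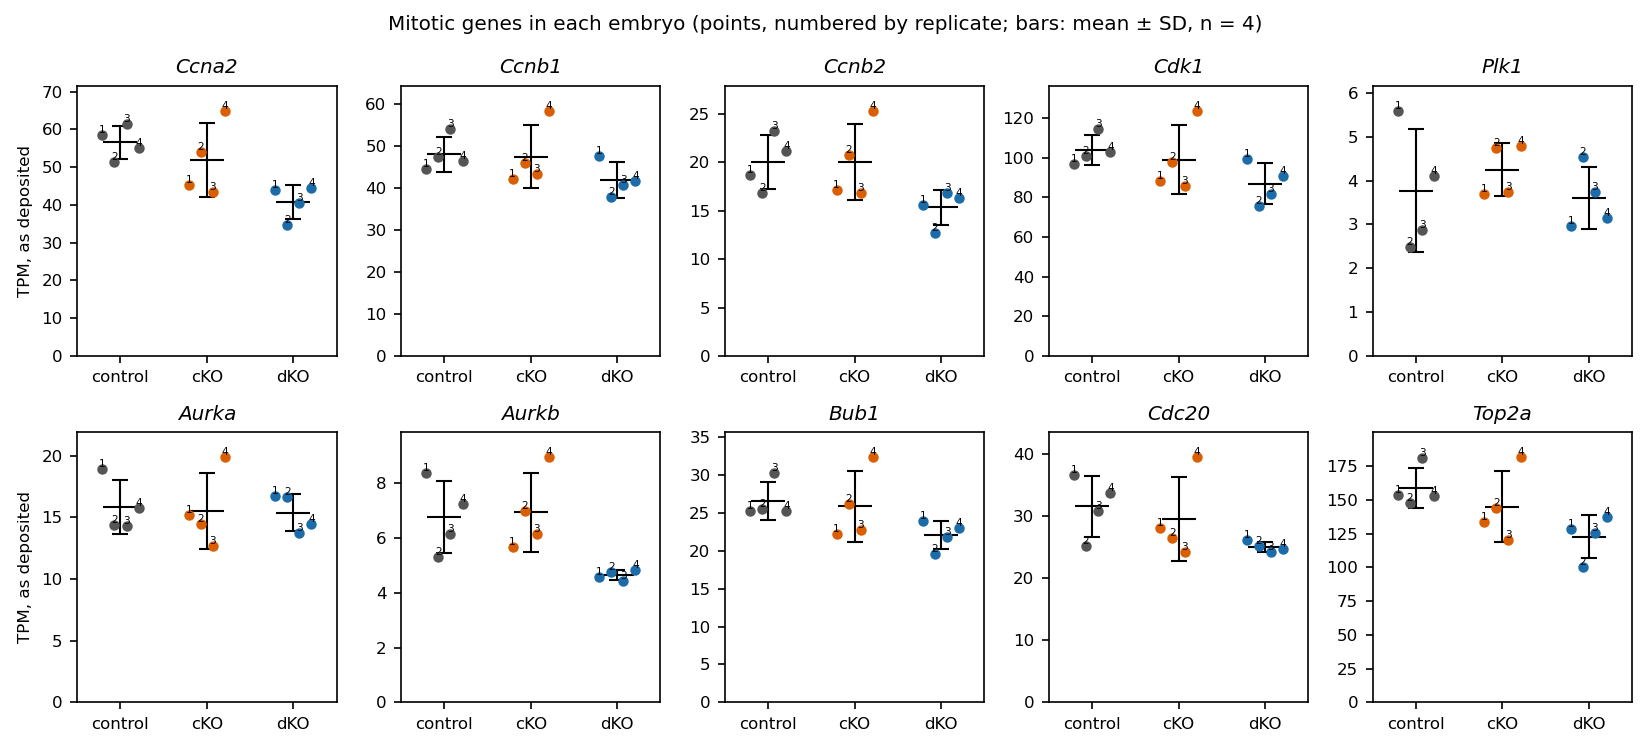
TPM of each of the 10 genes (vertical axes, starting at 0) in control, cKO and dKO embryos, with a numbered point per embryo and bars for the mean and SD of 4 embryos. The cKO embryo 4 is the highest point of its group in all 10 panels, and for Aurkb the 4 dKO points, 4.41 to 4.83 TPM, lie under every other embryo.

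Among the cyclins, Ccna2, which binds Cdk2 in S phase and Cdk1 in G2, separated the dKO embryos from control. Its level was 58.5, 51.3, 61.4 and 55.1 TPM in the control embryos, 45.3, 54.0, 43.3 and 65.0 TPM in cKO, and 43.8, 34.7, 40.4 and 44.6 TPM in dKO. All 4 dKO embryos lay below all 4 controls, whereas cKO embryos fell on both sides, 2 below every control and embryo 4 above every control. The dKO mean was 72.2% of the control mean, a difference of -0.46 ± 0.13 (SE) on the log2 scale with a 95% interval of -0.75 to -0.18, which missed the threshold in the limma fit as deposited (adjusted p = 0.0615). It passed in the same limma test after centring, at -0.44 (adjusted p = 0.0244), and after rescaling, at -0.40 (adjusted p = 0.0186). In cKO against control the Ccna2 difference was -0.14 as deposited (limma, adjusted p = 0.402), -0.39 after centring (adjusted p = 0.0468) and -0.29 after rescaling (adjusted p = 0.0508). The call after centring rested on small margins: it was kept in 4 of 12 limma fits that left out 1 embryo each, with adjusted p from 0.0215 to 0.134.

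Ccnb1, the main B cyclin partner of Cdk1, was measured at 44.4, 47.4, 53.9 and 46.3 TPM in control, 42.1, 45.8, 43.4 and 58.4 TPM in cKO, and 47.6, 37.7, 40.6 and 41.5 TPM in dKO. In dKO, 3 embryos lay below every control and embryo 1 lay within the control range. The difference of dKO from control was -0.19 (95% interval -0.45 to 0.06), and that of cKO was -0.03 (limma, adjusted p = 0.385 and 0.867). Ccnb2, the B cyclin found at the Golgi and spindle poles, was measured at 18.7, 16.8, 23.2 and 21.2 TPM in control, 17.2, 20.7, 16.9 and 25.4 TPM in cKO, and 15.6, 12.7, 16.8 and 16.3 TPM in dKO. The 4 dKO embryos lay below all control and all cKO embryos, although the highest dKO value, 16.79 TPM, was close to the lowest control (16.84 TPM) and cKO (16.85 TPM) values. Neither Ccnb2 difference passed the limma test, at -0.36 against control (adjusted p = 0.175) and -0.35 against cKO (adjusted p = 0.0635).

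Cdk1, the kinase that both cyclins activate, was measured at 96.9, 101, 114 and 103 TPM in control, 88.2, 98.1, 86.0 and 124 TPM in cKO, and 99.3, 75.7, 81.6 and 90.8 TPM in dKO. In cKO 2 embryos and in dKO 3 embryos lay below every control, and cKO embryo 4 lay above every control. The differences from control were -0.08 in cKO and -0.26 in dKO (limma, adjusted p = 0.616 and 0.276), and after centring they were -0.33 and -0.24 (adjusted p = 0.0995 and 0.199).

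Aurkb, the catalytic subunit of the chromosomal passenger complex, which corrects kinetochore attachments and drives cytokinesis, had closely grouped dKO embryos. It was measured at 8.35, 5.31, 6.15 and 7.25 TPM in control, 5.68, 6.96, 6.13 and 8.94 TPM in cKO, and 4.57, 4.77, 4.41 and 4.83 TPM in dKO. Every dKO embryo lay below every control and every cKO embryo, and the dKO coefficient of variation was 4.11% against 19.5% in control. Its dKO mean came to 68.7% of the control mean and 67.1% of the cKO mean. Against cKO, Aurkb fell by 0.47 ± 0.14 (SE) on the log2 scale in the fit as deposited (limma, adjusted p = 0.0175; 95% interval -0.77 to -0.18). That call did not hold after centring (-0.20, limma adjusted p = 0.237), after rescaling (-0.28, adjusted p = 0.0916) or without cKO embryo 4 (-0.36, adjusted p = 0.0513). Against control the reverse held, with -0.44 as deposited missing the threshold (limma, adjusted p = 0.0809) and -0.42 after centring and -0.39 after rescaling passing it (adjusted p = 0.0230 and 0.0315).

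Aurka, the Aurora kinase of centrosomes and spindle poles, did not share this pattern. Its level was 18.9, 14.3, 14.3 and 15.7 TPM in control, 15.1, 14.5, 12.6 and 19.9 TPM in cKO, and 16.7, 16.6, 13.7 and 14.5 TPM in dKO. The 3 groups overlapped throughout, and the dKO mean was 97.2% of control. The dKO difference from control was -0.03 with an interval of -0.32 to 0.25 (limma, adjusted p = 0.923), so a change of the size seen for Aurkb lies outside it. Against cKO, Aurka in dKO stood at -0.00 as deposited and at 0.27 after centring, without a call in either (limma, adjusted p = 0.998 and 0.145). Whether Aurka and Aurkb differed from each other was not tested. Plk1, the Polo kinase of entry, spindle and exit, was measured at 5.60, 2.48, 2.88 and 4.10 TPM in control, 3.69, 4.75, 3.75 and 4.78 TPM in cKO, and 2.95, 4.53, 3.75 and 3.15 TPM in dKO. Its control range enclosed all cKO and dKO embryos. The Plk1 interval for dKO against control ran from -0.41 to 0.37 around -0.02. Changes of the size seen for Ccnb1 and Ccnb2 thus lie inside it, and that of Ccna2 lies just outside it.

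Bub1, which recruits checkpoint proteins and shugoshin to the kinetochore, was measured at 25.2, 25.6, 30.3 and 25.2 TPM in control, 22.3, 26.2, 22.7 and 32.3 TPM in cKO, and 23.9, 19.5, 21.9 and 23.0 TPM in dKO. The dKO embryos lay below every control, at 83.0% of the control mean, and the difference of -0.26 was not called (limma, adjusted p = 0.253). Cdc20, the activator through which the anaphase-promoting complex starts exit, was measured at 36.6, 25.2, 30.8 and 33.7 TPM in control, 28.0, 26.4, 24.2 and 39.5 TPM in cKO, and 26.2, 25.2, 24.1 and 24.6 TPM in dKO. Its dKO embryos were tightly grouped and reached up only into the lowest control embryo. The Cdc20 difference from control was -0.31 in dKO as deposited and -0.35 in cKO after centring, neither called (limma, adjusted p = 0.257 and 0.0836).

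Top2a, the most abundant of the 10, was measured at 154, 148, 181 and 153 TPM in control, 134, 144, 120.3 and 182 TPM in cKO, and 128, 101, 125 and 137 TPM in dKO. All dKO embryos lay below all controls, and 3 of 4 cKO embryos did as well. The Top2a difference was -0.37 in dKO (95% interval -0.67 to -0.07; limma, adjusted p = 0.149) and -0.14 in cKO (adjusted p = 0.410). After centring it was -0.35 and -0.39 (limma, adjusted p = 0.0916 and 0.0759).

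Compared with control, the cKO pallium showed little difference in the 10 genes on the deposited scale, where the median gene was shifted upward. Their median difference was -0.04, against 0.25 over all genes tested, and each of the 10 lay below that all-gene median under all 3 scalings. No member was called in the limma fit as deposited, while 1.09% of all genes tested were called lower and 34.3% were called higher. None of the members had an unadjusted p under 0.05, where 5687 of 11764 genes did. After centring the median was -0.29, and 1 member, Ccna2, was called lower, against 2.96% of genes. An unadjusted p under 0.05 was found for 9 members, and for 2536 of 11764 genes. After rescaling the median was -0.19 and 0 members were called in limma, against 1.74% of genes called lower. Of the members 5 had an unadjusted p under 0.05, where 3501 of 11764 genes did. Counting embryos, no member had every cKO embryo below every control as deposited, where 0.91% of genes did, and 2 members, Ccna2 and Top2a, did so after rescaling, where 2.98% of genes did. The same 2 members did so after centring, and the share over all genes was not counted there. The cKO embryo 4 weighed on these values: it was the highest of all 12 embryos for 9 of 10 genes. Without it the median was -0.15 as deposited and -0.36 after centring.

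In dKO against control the 10 genes leaned lower on each scale. Their median difference was -0.29 as deposited, -0.27 after centring and -0.22 after rescaling, against -0.01, 0.01 and 0.04 over all genes. As deposited no member was called in limma, where 3.4% of genes were called lower. An unadjusted p under 0.05 was found for 4 members, and for 2368 of 11764 genes. After centring and after rescaling 2 members, Ccna2 and Aurkb, were called lower, against 4.69% and 3.74% of genes. Every dKO embryo lay below every control for 5 of 10 members as deposited (Ccna2, Ccnb2, Aurkb, Bub1 and Top2a), where 8.44% of genes did so. After rescaling this held for 3 members, Ccna2, Aurkb and Cdc20, where 5.75% of genes did so. After centring it held for 4 members, Ccna2, Ccnb2, Aurkb and Top2a, and the share over all genes was not counted there. Without cKO embryo 4, which enters this comparison only through the shared estimate of spread, Ccna2 and Aurkb were also called as deposited (limma, adjusted p = 0.0252 and 0.0439), which was the case in 1 of 12 fits that left out 1 embryo. After centring, Ccna2 was called in 9 and Aurkb in 10 of 12 such fits. Plk1 and Aurka stood near 0 under each scaling, from -0.03 to 0.04.

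The dKO to cKO comparison turned on the scale. As deposited the median member difference was -0.21, closer to 0 than the -0.26 over all genes, and 1 of 10 members, Aurkb, was called lower, where 38.8% of all genes were. Every dKO embryo lay below every cKO embryo for 2 members, Ccnb2 and Aurkb, where 32.8% of genes did so. This held for 1 member, Aurkb, after rescaling and for 0 after centring, and the share over all genes was not counted there. After centring the median was 0.06 with 7 of 10 members above 0, and 0 members were called in limma, where 3.83% of genes were called lower. An unadjusted p under 0.05 was found for 1 member, and for 2757 of 11764 genes. After rescaling 0 members were called, where 8.28% of genes were called lower, and 2 had an unadjusted p under 0.05, where 3161 of 11764 genes did. Both comparisons with control share the 4 control embryos, and the values for each gene stand side by side in the plot of intervals by genotype.

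**Figure D2:**
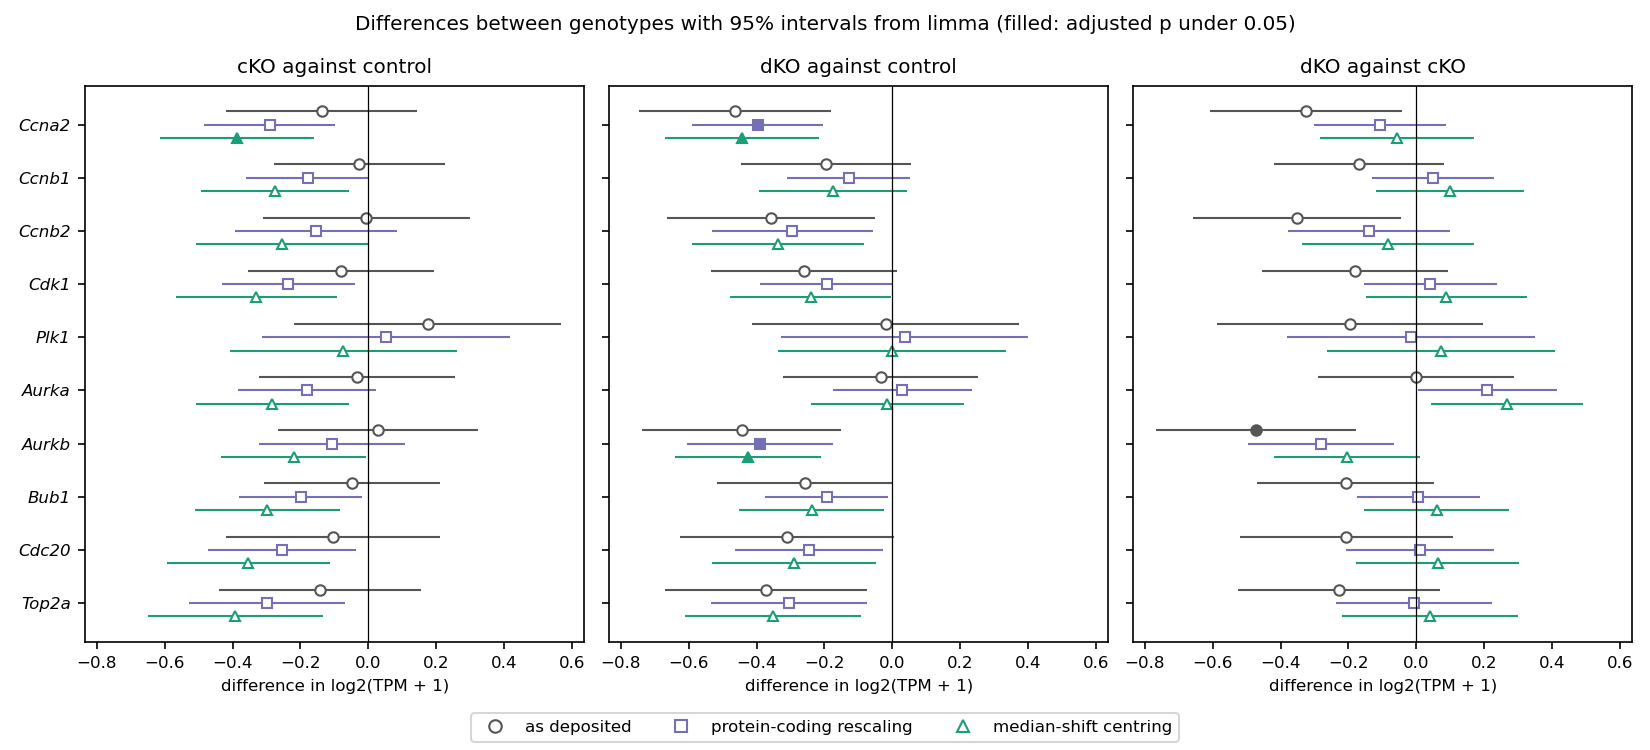
Differences in log2(TPM + 1) between genotypes for each gene (horizontal axes), with 95% intervals from limma, under 3 scalings marked by shape and colour. Filled symbols passed an adjusted p of 0.05: Ccna2 in cKO against control after centring, Ccna2 and Aurkb in dKO against control after centring and rescaling, and Aurkb in dKO against cKO as deposited.

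Ratios within a library do not move with its scale. As a share of the summed TPM of the 10 genes, Ccna2 held 12.5, 11.7, 11.9 and 11.9% in the control embryos. It held 11.3, 12.2, 11.4 and 11.6% in the cKO embryos and 10.7, 10.5, 10.8 and 11.1% in the dKO embryos. The dKO shares lay below all control and all cKO shares, and no other of the 10 genes had a share that separated a pair of groups. Top2a held 30.3 to 34.9% and Cdk1 20.7 to 24.3% over the 12 embryos.

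The summed TPM of the 10 genes was 467, 437, 518 and 464 in the control embryos, 401, 442, 379 and 560 in the cKO embryos, and 409, 332, 373 and 400.5 in the dKO embryos. Per 100 TPM of nuclear protein-coding genes it was 0.286, 0.299, 0.323 and 0.303 in the control embryos, 0.249, 0.252, 0.236 and 0.280 in the cKO embryos, and 0.264, 0.222, 0.258 and 0.275 in the dKO embryos. On this ratio all 4 cKO and all 4 dKO embryos lay below all controls, and cKO embryo 4, the highest in TPM, fell under the lowest control. The group means of cKO and dKO were 84.0% and 84.2% of control. Over 10 radial glia markers, the ratio was 1.59 to 1.85 in control, 1.15 to 1.50 in cKO and 1.15 to 1.42 in dKO, again without overlap with control. The summed radial glia markers themselves were 266 to 293 TPM in control, 316 to 372 TPM in cKO and 288 to 298 TPM in dKO. Of these 10 markers, 3 were called higher and 1 lower in cKO against control as deposited, where 34.3% and 1.09% of all genes were. After centring 0 were called higher and 2 lower, where 3.72% and 2.96% of all genes were. The medians were 0.18 and -0.07. Over 12 neuron markers the ratio was 1.53 to 1.79 in control, 1.01 to 1.47 in cKO, below every control, and 1.17 to 2.19 in dKO, on both sides of control. Over 18 S phase genes the ratio was 0.892 to 0.967 in control, 0.925 to 0.951 in cKO and 0.867 to 0.947 in dKO, with overlap between all groups. For 7 intermediate progenitor markers, not plotted, the ratio averaged 11.9 ± 1.73 (SD) in control, 12.9 ± 0.487 in cKO and 11.6 ± 1.91 in dKO. The cKO and dKO means were 108% and 97.0% of control, and all groups overlapped. The lower ratio to radial glia markers was thus not seen with this second progenitor list.

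**Figure D3:**
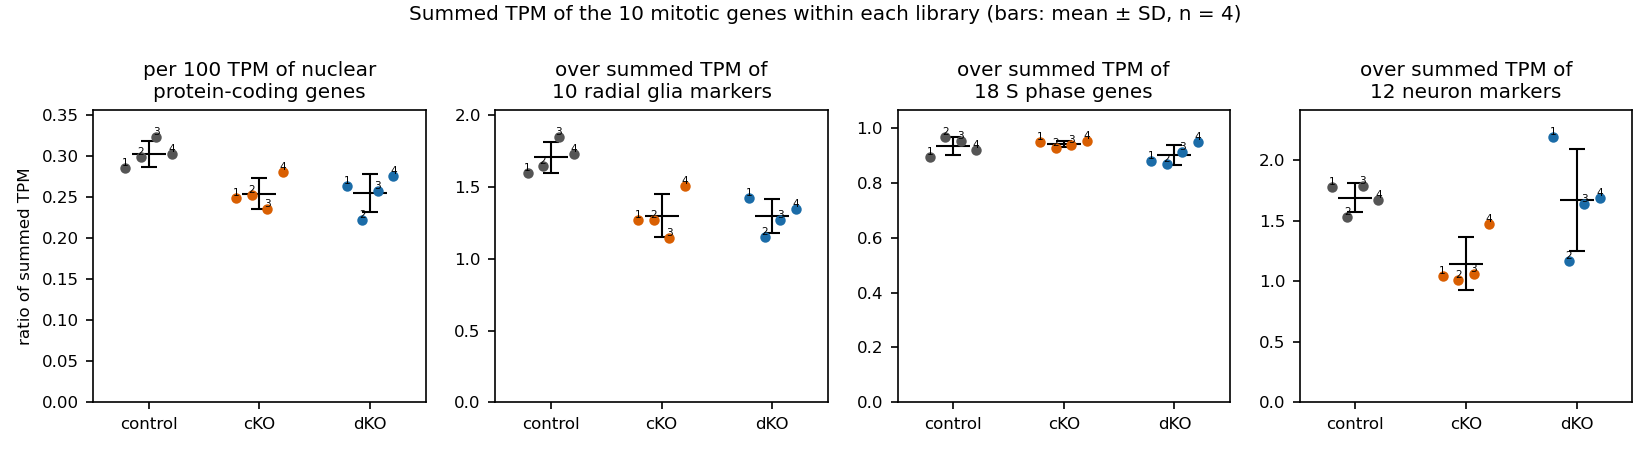
Summed TPM of the 10 genes in each library divided by nuclear protein-coding TPM, by 10 radial glia markers, by 18 S phase genes and by 12 neuron markers (vertical axes, starting at 0), with a numbered point per embryo and bars for mean and SD (n = 4). Both mutant groups lie below control in the first and second panels and overlap it in the S phase panel. In the neuron panel cKO lies below every control, while dKO, at 1.17 to 2.19, overlaps control.

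The genes around these 10 were taken from lists of their regulators, partners and targets, described by counts. Counts at an unadjusted p under 0.05 are to be read beside those over all 11764 genes. As deposited these were 5687 in cKO against control, 2368 in dKO against control and 5990 in dKO against cKO. After centring they were 2536, 2878 and 2757, and after rescaling 3501, 2958 and 3161. Over 79 tested genes of 6 mitotic lists without the 10 members, 9 were called higher and 1 lower in cKO against control as deposited, where 34.3% and 1.09% of all genes were. After centring 1 was called higher and 7 lower (all genes 3.72% and 2.96%), and after rescaling 3 and 4 (all genes 11.3% and 1.74%). In dKO against control 0 were called higher and 6 lower as deposited, with 24 at an unadjusted p under 0.05 in limma, where 1.79% of all genes were called higher and 3.4% lower. After centring 0 were higher and 10 lower (all genes 3.74% and 4.69%), and after rescaling 1 and 7 (all genes 5.44% and 3.74%). Between dKO and cKO 0 were higher and 30 lower as deposited (all genes 0.612% and 38.8%), 1 and 3 after centring (2.1% and 3.83%), and 1 and 5 after rescaling (1.4% and 8.28%). Their median differences from control were 0.11 in cKO and -0.15 in dKO as deposited, and -0.14 and -0.13 after centring.

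Among 12 genes of the DREAM, MuvB and FoxM1 transcription complexes, 1 rose in cKO against control as deposited, beside 34.3% of all genes. In the same comparison 1 fell, beside 1.09%, and in dKO against control 2 fell, beside 3.4%. After centring 0 were called higher and 2 lower in cKO, and 3 lower in dKO, where 2.96% and 4.69% of all genes were called lower. E2f5, a repressor E2F that works with pocket proteins, fell by 0.36 ± 0.07 (SE) in cKO and by 0.50 ± 0.07 in dKO (limma, adjusted p = 0.00442 and 0.00239), and passed the test under all 3 scalings in both. Rbl2, the p130 pocket protein of DREAM, rose by 0.53 in cKO (limma, adjusted p = 0.00220) but was not called after centring (0.28, adjusted p = 0.108). Mybl2, the B-Myb subunit that joins MuvB to activate mitotic genes, fell by 0.44 in dKO against control (limma, adjusted p = 0.0450), by 0.43 after centring (adjusted p = 0.0446), and stood at -0.41 after rescaling (adjusted p = 0.0580). Between dKO and cKO 4 of the 12 fell as deposited, where 38.8% of all genes did, and 1, Rbl2, after centring, where 3.83% did. Tfdp1, the DP1 partner of E2F proteins, was among the 4, at -0.45 (limma, adjusted p = 0.0111; after centring -0.18, adjusted p = 0.262).

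Of 10 partners of the mitotic kinases, Ckap2, a spindle protein, rose by 0.58 ± 0.10 (SE) in cKO against control and fell by 0.95 ± 0.10 in dKO against cKO (limma, adjusted p = 0.00194 and 1.1e-04), and passed the test under all 3 scalings in both. Hmmr, a spindle assembly factor at the poles, fell by 0.46 in dKO against control (limma, adjusted p = 0.0298; after centring -0.44, adjusted p = 0.0222). Tacc3, an Aurora A substrate on the spindle, was lower by call in dKO against cKO only as deposited, at -0.41 (limma, adjusted p = 0.0163; after centring -0.14, adjusted p = 0.407). The list as a whole had 1 of 10 called higher and 0 lower in cKO against control as deposited (all genes 34.3% and 1.09%). It had 1 higher and 2 lower after centring (all genes 3.72% and 2.96%), and 1 and 1 after rescaling (all genes 11.3% and 1.74%). In dKO against control 1 of 10 was called lower as deposited and 2 after centring and after rescaling, Hmmr and Ckap2, with Ckap2 at -0.34 after centring (limma, adjusted p = 0.0280). Over all genes, 3.4% were called lower as deposited, 4.69% after centring and 3.74% after rescaling. Against cKO 3 of 10 were called lower as deposited, where 38.8% of all genes were. Under both other scalings 1 was, Ckap2, where 3.83% of all genes were after centring and 8.28% after rescaling. The summed TPM of the 10 partners was 122 to 142 in control and 110.5 to 116 in dKO, without overlap.

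Of 11 condensin and chromosome genes, 0 were called in cKO against control as deposited (limma, 1 at an unadjusted p under 0.05). Over all genes 34.3% were called higher and 1.09% lower there. In dKO against control 3 fell, where 3.4% of all genes were called lower. Ncapg2 and Ncapd3, subunits of condensin II, fell by 0.53 and 0.31 (limma, adjusted p = 0.00806 and 0.0485). Ncapg, a subunit of condensin I, fell by 0.40 (limma, adjusted p = 0.0165). All 3 passed again after centring, where 4 of 11 were called lower beside 4.69% of all genes. After rescaling Ncapd3 did not pass, at -0.26 (limma, adjusted p = 0.0548). In cKO against control Ncapg was called lower after centring, at -0.43, and after rescaling, at -0.32 (limma, adjusted p = 0.00242 and 0.0164). Against cKO 6 of 11 were called lower in dKO as deposited, where 38.8% of all genes were, and 1 after centring, where 3.83% were, Top2b, the topoisomerase II also used in neurons, at -0.68 and -0.41 (limma, adjusted p = 0.00108 and 0.0397).

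None of 12 genes that switch Cdk1 on or off was called in cKO or dKO against control as deposited (limma, 3 and 2 at an unadjusted p under 0.05). In dKO against control Cdc25c, a phosphatase that activates Cdk1 and is named here after its values were seen, was called lower after centring at -0.39 and after rescaling at -0.35 (limma, adjusted p = 0.0235 and 0.0221). Cks1b, a Cdk-binding subunit also named after its values were seen, was called higher in dKO against control after rescaling, at 0.29 (limma, adjusted p = 0.0295). It was called higher in dKO against cKO after centring at 0.36 and after rescaling at 0.31 (limma, adjusted p = 0.0453 and 0.0214). Against cKO, 5 of the 12 were called lower as deposited, where 38.8% of all genes were. Lower calls after centring numbered 0 (limma, 1 at an unadjusted p under 0.05), where 3.83% of all genes were called lower. Among the 5 were Pkmyt1, which inhibits Cdk1, at -0.40, and Ensa and Bora, which act for entry, at -0.36 and -0.35 (limma, adjusted p = 0.0187, 0.00452 and 0.00786). Of 14 checkpoint genes, 2, Mad1l1 and Mad2l1bp, were called higher in cKO as deposited, where 34.3% of all genes were. They stood at 0.32 and 0.29 (limma, adjusted p = 0.0399 and 0.0453), and at 0.07 and 0.04 after centring (adjusted p = 0.696 and 0.832). After centring the checkpoint list had a median of -0.23 in cKO against control, with 0 called higher and 2 lower, against 2.96% of all genes called lower. These were Mad2l1 and Spdl1, named after their values were seen, at -0.40 and -0.32 (limma, adjusted p = 0.0337 and 0.0422), and after rescaling Mad2l1 alone passed, at -0.29 (adjusted p = 0.0498). In dKO against control 0 of the 14 were called under any of the 3 scalings (limma, 2, 3 and 2 at an unadjusted p under 0.05). Over all genes 3.4%, 4.69% and 3.74% were called lower there as deposited, after centring and after rescaling, and 1.79%, 3.74% and 5.44% higher. Against cKO, Bub1b, the BubR1 kinase, was the single checkpoint gene called lower as deposited, where 38.8% of all genes were. It stood at -0.31 (limma, adjusted p = 0.0424), and at -0.04 after centring. Of 20 genes of the anaphase-promoting complex and exit, 5 were called higher in cKO as deposited, where 34.3% of all genes were, including the subunits Anapc16, Anapc11 and Cdc23 at 0.43, 0.39 and 0.37 (limma, adjusted p = 0.00693, 0.00729 and 0.0296), and 0 after centring, where 2 had an unadjusted p under 0.05. Over all genes 3.72% were called higher after centring. After rescaling Anapc16 passed at 0.28 (limma, adjusted p = 0.0285), where 11.3% of all genes were called higher. Between dKO and cKO 11 of these 20 were called lower as deposited, where 38.8% of all genes were. After centring 0 were (limma, 3 at an unadjusted p under 0.05), where 3.83% of all genes were, and after rescaling 2 were, where 8.28% of all genes were. Pttg1, the securin that Cdc20 targets, stood at 21.1, 5.28, 6.59 and 5.23 TPM in the dKO embryos and at 18.2, 18.7, 14.9 and 26.8 TPM in the cKO embryos. The first dKO embryo thus lay among the cKO values and apart from the other 3. The difference was -1.17 as deposited (limma, adjusted p = 0.0181) and -0.90 after centring (adjusted p = 0.137). The complex subunits Anapc1 and Cdc16 stood at -0.50 and -0.45 as deposited in that comparison (limma, adjusted p = 0.00208 and 0.00379) at -0.23 and -0.18 after centring (adjusted p = 0.0875 and 0.163), and were the 2 that passed after rescaling, at -0.29 and -0.24 (adjusted p = 0.0440 and 0.0446).

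S phase genes had medians near those of the 10 members. Of 18 tested, 2 were called lower and 1 higher in cKO against control as deposited, where 1.09% and 34.3% of all genes were. After centring 6 were called lower, where 2.96% of all genes were, and after rescaling 4, where 1.74% were. In dKO against control 3 were called lower as deposited, where 3.4% of all genes were. Under both other scalings 4 were, where 4.69% of all genes were after centring and 3.74% after rescaling. Tyms, the thymidylate synthase, fell by 0.28 in cKO and by 0.56 in dKO (limma, adjusted p = 0.0414 and 0.00669). Pcna, the replication clamp, fell by 0.37 in cKO (limma, adjusted p = 0.0360), and Cdc45 of the replicative helicase was called higher there at 0.30 (adjusted p = 0.0321) but stood at 0.05 after centring (adjusted p = 0.746). Ccne2 and Rrm2, a cyclin of S phase entry and a ribonucleotide reductase subunit, fell by 0.74 and 0.72 in dKO against control (limma, adjusted p = 0.00621 and 0.00732). The median over the list was -0.28 in dKO as deposited, beside -0.29 for the members, and -0.26 in cKO after centring, beside -0.29.

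Of 9 tested genes in a list named for G2 arrest, 5 rose in cKO against control as deposited, where 34.3% of genes were called higher. After centring 3 rose, where 3.72% of genes were called higher. In dKO against control 0 were called as deposited (limma, 4 at an unadjusted p under 0.05), where 1.79% of genes were called higher and 3.4% lower. After centring 2 were called lower there, where 4.69% of genes were. Ccng1, Cdkn1a (p21) and Plk2, which are known p53 targets, rose by 2.39, 1.56 and 1.37 in cKO against control (limma, adjusted p = 2.3e-08, 7.9e-05 and 3.0e-06). They fell by 2.61, 1.70 and 1.20 in dKO against cKO (limma, adjusted p = 7.5e-09, 5.3e-05 and 9.3e-06), and all 3 passed under each scaling. The list was chosen with earlier results on p53 targets in these libraries known, so its direction is no independent evidence. Gadd45g in this list is also among the intermediate progenitor markers.

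**Figure D4:**
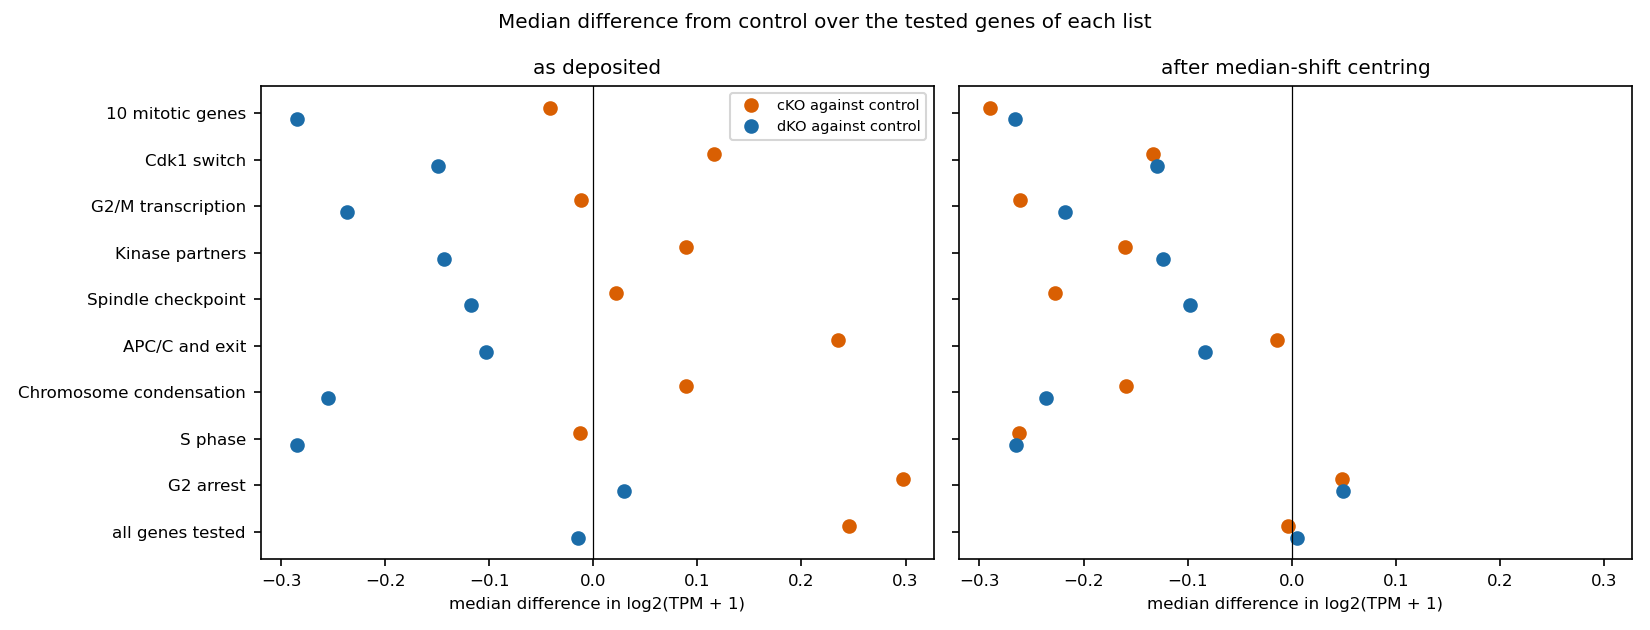
Median difference in log2(TPM + 1) from control over the tested genes of each list (horizontal axes), for cKO and dKO, as deposited and after median-shift centring. The 10 mitotic genes and the S phase genes lie farthest to the left (-0.29 and -0.26 in cKO after centring). Next to them lie the transcription list in cKO and the chromosome condensation list in dKO. The G2 arrest list lies to the right of all genes tested.

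Markers of other cells moved with the genotypes as well. The microglia markers, 9 of 9 above 0 in all libraries, summed to 12.2 to 14.5 TPM in control, 44.0 to 65.0 TPM in cKO and 13.7 to 19.5 TPM in dKO. The 12 neuron markers summed to 263 to 290 TPM in control, 357 to 438 TPM in cKO and 187 to 284 TPM in dKO. The 7 vessel markers summed to 9.69 to 12.8 TPM in control, 19.5 to 25.4 TPM in cKO and 12.3 to 19.4 TPM in dKO, and 5 mesenchyme markers to 22.7 to 39.4, 40.9 to 49.1 and 35.8 to 52.5 TPM. The 8 interneuron markers, 2 of them at 0 in some library, summed to 1.74 to 2.45 TPM in control, 3.68 to 5.31 TPM in cKO, without overlap with control, and 1.68 to 3.71 TPM in dKO, and 1 of them reached the level needed for the test. The 7 intermediate progenitor markers summed to 32.3 to 48.9 TPM in control, 29.9 to 41.2 TPM in cKO and 29.6 to 37.0 TPM in dKO. The 8 blood markers, at 2025 to 3077 TPM in control, 2473 to 3443 TPM in cKO and 2214 to 2822 TPM in dKO, and 5 choroid and hem markers, at 46.2 to 104, 86.8 to 256 and 71.2 to 296 TPM, overlapped between all groups. Radial glia markers were all above 0 in each library, as in the labelled tissue. The part of these other cells in the mitotic values was not tested.

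Some members share sequence or position with other rows of the tables, and how the authors treated shared reads is not given in the sources used here. Ccnb1-ps, a processed copy of Ccnb1, shares 832 runs of 50 bases with Ccnb1 transcripts and stood at 20.8 TPM in control, 19.3 TPM in cKO and 17.9 TPM in dKO. Gm12856, another copy, shares 590 runs and stood at 6.30 TPM in control. The level of Ccnb1 is therefore uncertain, and reads may be divided between these rows. Ccnb2-ps shares no run of that length with Ccnb2 and ranged from 1.05 to 2.23 TPM. Plk-ps1 shares 147 runs with Plk1 and stood at 0.647 TPM in control, beside 3.77 TPM for Plk1. Ccna2 overlaps Exosc9 on the opposite strand, and Exosc9 stood at 7.10 TPM in control, 8.93 TPM in cKO and 8.33 TPM in dKO, highest in the group where Ccna2 was intermediate.

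In mm10, with genes from GENCODE M21, the 10 members lie on 8 chromosomes, and all are protein-coding. Bub1 (chr2:127801122-127831865) and Aurka (chr2:172356190-172370535) share chromosome 2, and Aurkb (chr11:69045647-69051664) and Top2a (chr11:98992943-99024189) share chromosome 11. The others are Ccna2 (chr3:36564865-36572150), Cdc20 (chr4:118432901-118437352), Plk1 (chr7:122159439-122169873), Ccnb2 (chr9:70407692-70421547), Cdk1 (chr10:69335146-69352938) and Ccnb1 (chr13:100778650-100786570).

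Outside the 10, the genes whose profile over the 12 embryos lay nearest to the members' mean profile were Dtx3l, Ada, Slc16a1, Umps and Zfp367. Likeness was the mean absolute difference of centred log2(TPM + 1) values, and it was 0.0383 for Dtx3l, 0.0416 for Ada, 0.0461 for Slc16a1, 0.0490 for Umps and 0.0491 for Zfp367. Among the members themselves it ran from 0.0669 for Bub1 to 0.208 for Plk1, so Plk1 followed the common profile least. The libraries share their scale across all genes, so a small difference describes the profiles only.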

How the data were processed

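Total RNA from 12 dorsal telencephala was sequenced with a stranded kit, per the labels' protocols. HISAT2 and mm10 are named in the submitters' processing notes, while the quantifier, annotation and treatment of shared reads are not given in the sources used here. The deposited values are TPM per gene symbol: each of the authors' tables holds fractions with 1 fixed sum and has no header, so the unit was taken from the values. TPM keeps no depth, so depth is unknown and no counting interval is given.

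Groups came from the genotype labels. The test was limma's (version 3.58.1, R 4.3.3) on log2(TPM + 1), with an intensity trend, 1 fit of 3 groups and Benjamini-Hochberg adjustment over the 11764 genes averaging 1 TPM or more (threshold 0.05). Fold changes on this scale understate those of low genes. Targeted genes were compared by exact permutation over 70 assignments. Alternatives were a pseudocount of 0.1, no filter, a minimum mean of 5 TPM, median-shift centring, quantile normalization, protein-coding rescaling, sample weights, 2 groups only, a replicate block, and leaving out each embryo. Centring combined with the block or with leaving out an embryo was added after seeing the data. The fits were tested on simulated data.

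Named genes are the 10 members, Rnu11, Trp53, pseudogene copies, the 5 nearest profiles and, per list and contrast, at most the 3 genes called as deposited with the largest difference. Outside this rule, Cdc25c, Cks1b, Mad2l1 and Spdl1 were named after their values were seen. So were Ckap2 in dKO against control and Ncapg in cKO against control. The members and lists were chosen with earlier results of these data known. Loci and copies were read from GENCODE M21, and promoters from RefSeq GRCm38.p6. No 2 libraries shared identical values beyond 93 of 11764 genes.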

Additional observations from a re-analysis of the deposited data

Results flagged for a closer look

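Within groups of 4 embryos, a value was singled out when its gap to the nearest embryo exceeded Dixon's limit as a share of the group's range. This happened in 4 of 75 groups, and chance alone gives about 3.75. Control embryo 3 had Bub1 at 30.3 TPM, where the other controls were at 25.2 to 25.56 TPM. Control embryo 1 had a Ccna2 share of 12.53% of the summed TPM of the 10 genes, where the others were at 11.73 to 11.87%. In cKO embryo 3 the Ccnb1 share was 11.44%, where the others were at 10.38 to 10.49%. In cKO embryo 4 the ratio of the 10 genes to neuron markers was 1.474, where the other cKO embryos were at 1.009 to 1.062.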

How the results depend on the processing

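Most counts moved with the scaling. Of the 10 genes, cKO against control had 0 called as deposited and 1 after centring. The dKO against control comparison had 0 as deposited, 2 after centring, 2 after rescaling, 2 after quantile normalization, 3 with sample weights and 1 with only the 2 groups compared. In dKO against cKO, 1 was called as deposited, 0 after centring, rescaling or quantile normalization, and 3 with sample weights. Over all genes, cKO against control had 4163 calls as deposited, 786 after centring, 1539 after rescaling, 1900 at a mean of at least 5 TPM and 810 after quantile normalization. The dKO against control comparison had 610, 992, 1080, 294 and 1029, and 1579 with sample weights. In dKO against cKO there were 4636, 698, 1139, 2220 and 798. The median member difference in cKO against control was -0.29 after centring and -0.23 after quantile normalization. In dKO against cKO it was 0.0615 after centring, 0.0082 after quantile normalization and -6.6e-05 after rescaling. Trp53 in cKO against control was 0.18 as deposited and -0.0697 after centring (exact permutation, p = 0.514 and 0.971). The cause of these shifts was not tested. Plk1 has no value at a mean of at least 5 TPM.

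Same-numbered embryos did not visibly deviate together (correlations from -0.10 to 0.07 over 12 pairs, and 1 of 12 embryos was nearest its own number). The labels name no pairing, and the main fit used none. This check would miss a weak pairing, so whether same-numbered embryos were related remains unknown. With the replicate block, 0, 0 and 1 members and 2979, 409 and 3608 genes were called in cKO against control, dKO against control and dKO against cKO. With the block and centring these were 0, 1 and 0 members and 502, 598 and 415 genes, with medians of -0.29, -0.27 and 0.0615.

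Leaving out 1 embryo as deposited gave 2468 to 4353 genes and 0 members in cKO against control. In dKO against control it gave 333 to 705 genes and 0 to 2 members. In dKO against cKO it gave 3082 to 4851 genes and 0 to 3 members. With centring the genes were 461 to 951, 542 to 1035 and 253 to 728 in the same order. The members were then 0 to 2, 0 to 2 and 0. Median member differences ran from -0.15 to 0.0094, from -0.34 to -0.24 and from -0.28 to -0.11 as deposited. With centring they ran from -0.36 to -0.27, from -0.32 to -0.21 and from 0.01 to 0.11. In dKO against cKO as deposited, Ccnb1 ran from -0.23 to -0.07, Cdk1 from -0.25 to -0.07 and Bub1 from -0.27 to -0.10. Cdc20 ran from -0.29 to -0.06 and Top2a from -0.31 to -0.12. With centring, Ccnb1 ran from 0.03 to 0.16, Cdk1 from 0.01 to 0.17 and Bub1 from 0.01 to 0.13. Cdc20 then ran from 0.0084 to 0.16 and Top2a from -0.03 to 0.15. Of these genes, only Top2a with centring changed sign with the embryo left out. The others changed sign only between the scalings. The lowest gene counts in the first and last comparison came without cKO embryo 2, with centring (461 and 253).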
